A study of Homo sapiens with 6 samples.

Results

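The rows described here are 3 transcript groups of an RNA-seq count table, given by their first UCSC ID as uc001kmo.3, uc003okx.2 and uc003lzb.3. They are 3 of 20514 rows, of which 14711 had enough reads to be tested, and each was found in the table by that ID. They were chosen on the measured values: over 20-fold lower after an siRNA against ADAR1, and part of the way back when an siRNA against Staufen1 was added. Their fall, return and remaining gap are therefore given as a description, with no test.

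The cells were A172, an established human glioblastoma line, in 3 groups of 2 libraries each (replicates a and b). One group was transfected with siControl, a control siRNA, another with siADAR1, which targets ADAR1, and the last with siADAR1 and siStaufen1, which targets Staufen1 as well and is called the combined knockdown here. The labels' treatment text, the same for every library, also names an HA-STAU1 plasmid transfected a day later, so the controls may carry it too. That text does not mention the Staufen1 siRNA, a group with the Staufen1 siRNA alone was not analysed here, and the labels do not say whether replicates a and b were separate cultures, so errors may measure technical spread only.

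ADAR1 binds double-stranded RNA and converts adenosine in it to inosine. Staufen1 also binds double-stranded RNA, among it structures in the 3′ untranslated regions of mRNAs, and from there can recruit the helicase UPF1 and start decay of the mRNA, a route known as Staufen-mediated decay. The design asks, for each transcript that is lost with the ADAR1 siRNA, how much of it is present when Staufen1 is targeted as well.

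No gene symbol is given for the 3 rows. The row of uc001kmo.3 groups 3 transcripts (uc001kmo.3, uc001kmp.3 and uc001kmq.3). The row of uc003okx.2 groups 5 (uc003okx.2, uc003oky.2, uc003okz.2, uc011dte.1 and uc011dtf.1), and that of uc003lzb.3 groups 4 (uc003lzb.3, uc003lzc.3, uc011dek.1 and uc011del.2). The deposited file does not pair these IDs with names, and 0 of the 12 were found in the RefSeq gene table of GRCh38.p14, so position, function and sequence of the 3 rows are not described. The median over tested rows was 3 transcripts per row, and 39.4% of tested rows grouped 3 to 5. Reads were summed over the transcripts of a row, so a change in 1 of them and a change in all cannot be told apart, and with the strand setting not given, reads of an overlapping antisense gene cannot be told apart either.

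The libraries held 20291057 to 29508632 reads. The TMM factors that scale them were 0.894 ± 0.010 in siControl, 1.10 ± 0.0043 in siADAR1 and 1.02 ± 0.0064 in the combined knockdown (SD, n = 2 each). The 100 most abundant rows took 31.0% ± 0.51, 25.1% ± 0.019 and 27.3% ± 0.26 of the reads in the same order (SD, n = 2 each), and the part of this shift in the results below was not tested. The levels of ADAR and STAU1, which would check the labels, were not analysed here, nor were markers of the cell line, since no row is paired with a symbol. Levels below are CPM, reads scaled to a common library size after TMM scaling, and they are shares of a library. A lower share from fewer cells that hold a transcript and one from less of it per cell cannot be told apart.

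In every library of siADAR1, all 3 rows stood at 2.78% to 5.09% of their mean siControl level. In the combined knockdown they stood at 33.4% to 42.4%, between the other groups in both libraries. The 3 rows lost most of their level, regained a part of it, and stayed well short of siControl. The row uc003lzb.3 had the smallest fitted fall, the smallest return and the widest remaining gap. Between single libraries, its fall overlapped that of uc001kmo.3.

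For uc001kmo.3, the siControl libraries held 390 reads (replicate a) and 441 (replicate b), which are 21.7 and 19.8 CPM. The siADAR1 libraries held 16 and 30 reads, or 0.577 and 0.926 CPM, and the combined knockdown libraries 200 and 250 reads, or 7.99 and 8.77 CPM. The 3 groups did not overlap, which the choice of the rows favoured here and in the other rows, and siADAR1 replicate a had the lowest value. How many tested rows separate all 3 groups was not analysed here. This row has the fewest reads of the 3, so its level in siADAR1 is the least precise. The exact 95% Poisson intervals of the siADAR1 libraries, which cover counting error only, were 0.330 to 0.936 CPM and 0.625 to 1.32 CPM and overlapped each other.

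For uc003okx.2, the siControl libraries held 682 and 755 reads, or 37.9 and 33.8 CPM. The siADAR1 libraries held 35 and 45 reads, or 1.26 and 1.39 CPM. The combined knockdown libraries held 375 and 418 reads, or 14.99 and 14.7 CPM. The groups again did not overlap, and the combined knockdown libraries lay closest together, 1.02-fold apart. For uc003lzb.3, the siControl libraries held 1251 and 1563 reads, or 69.5 and 70.1 CPM. The siADAR1 libraries held 91 and 115 reads, or 3.28 and 3.55 CPM, and the combined knockdown libraries 612 and 664 reads, or 24.5 and 23.3 CPM. Its siControl libraries were 1.01-fold apart, the groups did not overlap, and it had the most reads behind each value.

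**Figure D1:**
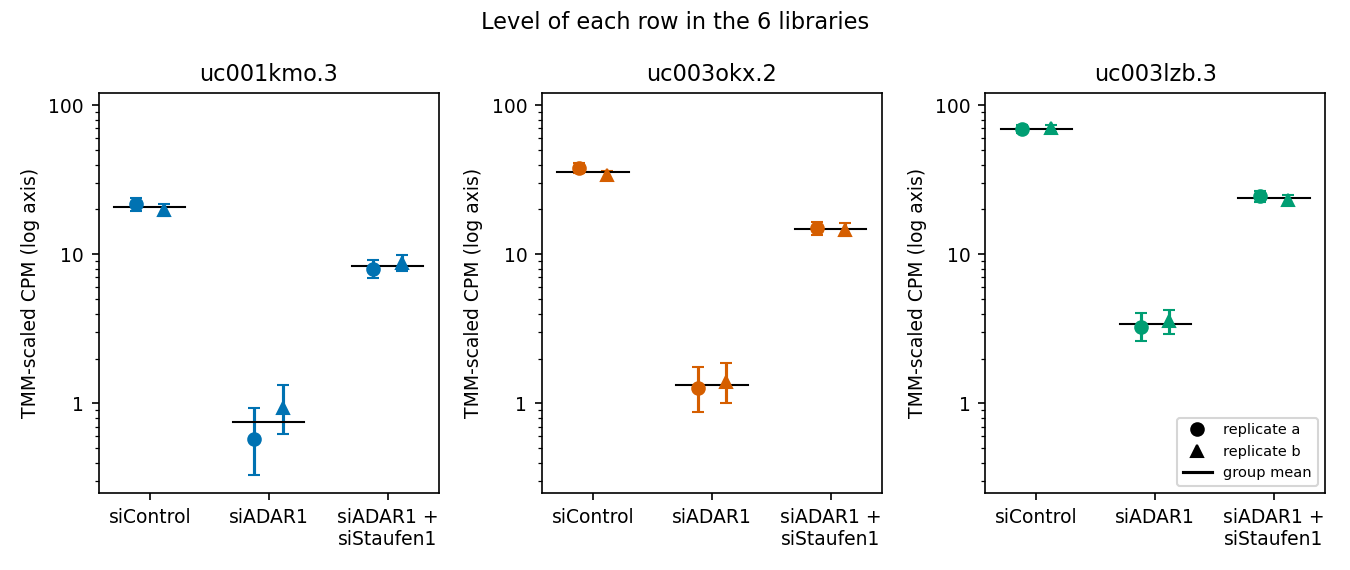
Level of each row in TMM-scaled CPM on a log axis, one panel per row, with a point for each library (circle for replicate a, triangle for replicate b), exact 95% Poisson intervals as bars and group means as lines. The siADAR1 points sit lowest, at 0.577 to 3.55 CPM over the 3 rows, and the combined knockdown points lie between them and siControl in each panel.

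The replicates were also set against counting noise, which leaves out other sources of spread and gives wide intervals at low counts. In 8 of 9 sets (3 rows in 3 groups), the share of the reads found in replicate a had an exact 95% binomial interval (Clopper-Pearson) that included the share its scaled depth predicts. The exception was uc003okx.2 in siControl, where replicate a held 47.5% of the reads (44.9% to 50.1%) and its depth predicts 44.7%. The widest gap between replicates was 1.61-fold, for uc001kmo.3 in siADAR1. There the difference of 0.68 in log2 CPM was larger than that of 74.6% of the 515 rows with similar read numbers (within 1.2-fold of the sum over both libraries).

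The falls with siADAR1 were read from the edgeR fit to all 6 libraries. The SEs of falls and returns, derived from the F statistic, are too small. Counting error of the summed siADAR1 reads (46 for uc001kmo.3, 80 for uc003okx.2 and 206 for uc003lzb.3) is by itself larger. The row uc001kmo.3 had a log2 fold change of -4.75 (SE 0.18), which is 26.9-fold lower than siControl. The row uc003okx.2 had -4.75 (SE 0.13), or 26.8-fold lower, so the sizes of these falls cannot be ranked within their errors. The row uc003lzb.3 had -4.35 (SE 0.090), or 20.4-fold lower. Taking each siADAR1 library against each siControl library, the 4 pairs gave 21.3- to 37.6-fold for uc001kmo.3, 24.4- to 30.03-fold for uc003okx.2 and 19.6- to 21.4-fold for uc003lzb.3. The wide range of uc001kmo.3 comes with its 16 and 30 reads and overlaps that of uc003lzb.3, so their falls cannot be firmly ranked either. In this comparison 38.1% of tested rows were lower without overlap between the libraries, and 29.7% were lower in edgeR's test (adjusted p under 0.05), as were all 3 rows, which were chosen for it. The median log2 fold change was -4.75 over the 3 rows and 0.04 over all tested rows.

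A fall of over 20-fold was met by 6 tested rows (0.0408%), so the 3 rows are not the only ones. The other 3 were single-transcript rows with at most 60 reads in any siControl library and 0 or 1 read in each siADAR1 library, and 2 of them had 0 reads in both, so their fold depends on the prior count and none is given. The number of rows over 20-fold lower also depended on the processing. It was 6 with DESeq2 size factors and 7 with DESeq2. It was 3 with a prior count of 2, 5 with library totals, 10 with limma-voom and 77 with no filter on low counts. With a library left out it rose as well, most without a siADAR1 library. Those counts rest on a lone library in a group and are not given. The 3 rows described here took ranks 4, 5 and 6 among all tested rows by the fitted fall, and ranks 1, 2 and 3 among rows averaging 3 or more in log2 CPM. Values on either side of the threshold lay close together. The row just inside was uc003lzb.3 at -4.35, and the row just outside, a group of 8 transcripts, was at -4.28 (19.5-fold). The log2 fold change of the latter when the Staufen1 siRNA was added was 0.22.

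The place of uc003lzb.3 above 20-fold depended on the processing. It was 16.6-fold lower when reads were scaled to library totals in place of TMM, 19.96-fold with a prior count of 2, and 19.6-fold without siADAR1 replicate a. Library totals lowered the falls of the other rows as well, to 21.9-fold for uc001kmo.3 and 21.8-fold for uc003okx.2, because that scaling moves the median of all rows by 0.30 on the log2 scale. For uc001kmo.3 the siADAR1 libraries decided the size. The fall was 22.2-fold without replicate a and 35.5-fold without replicate b of siADAR1, whereas uc003okx.2 stood at 25.7- and 28.3-fold in the same settings.

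**Figure D2:**
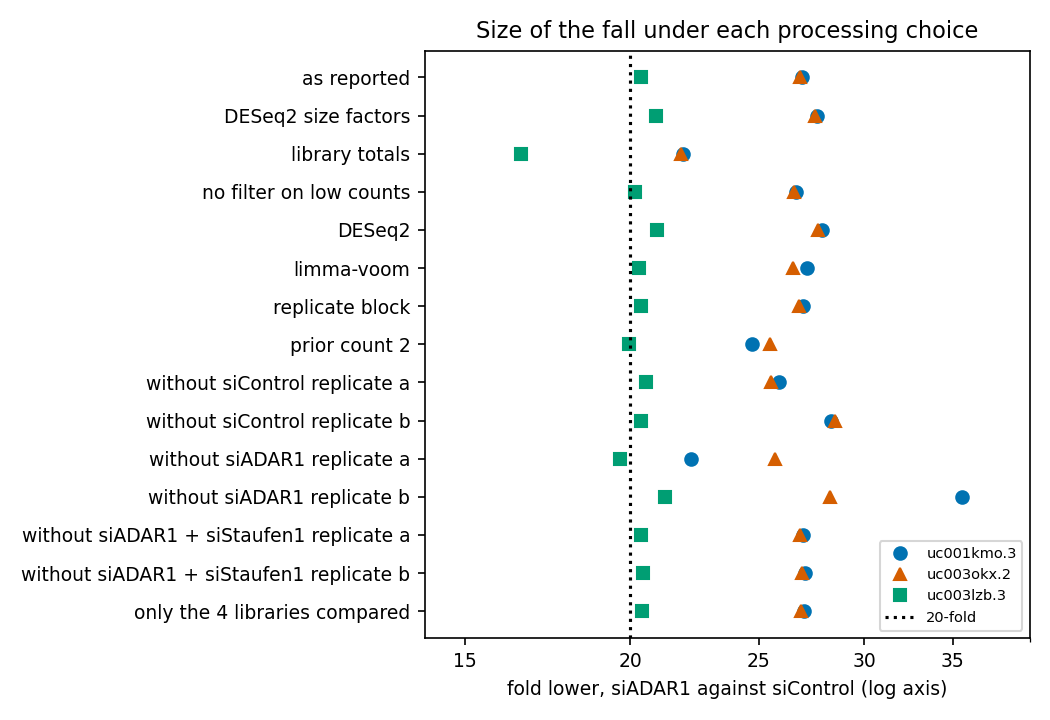
Fold by which each row was lower in siADAR1 than in siControl (log axis) as reported and under each alternative setting, with circles for uc001kmo.3, triangles for uc003okx.2, squares for uc003lzb.3 and a dotted line at 20-fold. The squares lie beside the line, at 16.6-fold under library totals, and the circle reaches 35.5-fold without siADAR1 replicate b.

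When the Staufen1 siRNA was added, the rows rose against siADAR1 by log2 fold changes of 3.45 (SE 0.20) for uc001kmo.3, 3.47 (SE 0.13) for uc003okx.2 and 2.80 (SE 0.094) for uc003lzb.3. These are 10.9-, 11.1- and 6.96-fold. Between single libraries the rise ran from 8.63- to 15.2-fold for uc001kmo.3, from 10.6- to 11.9-fold for uc003okx.2 and from 6.56- to 7.46-fold for uc003lzb.3. The range of uc003lzb.3 lay below those of the other rows. All 3 rows were higher without overlap, as were 37.1% of tested rows, and higher at an adjusted p of 0.05, as were 21.7%; this rise was part of the choice of the rows. The median log2 fold change was 3.45 over the 3 rows and 0.0011 over all tested rows.

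The remaining gap to siControl, a comparison that shares its libraries with the other 2, was -1.30 (SE 0.13) for uc001kmo.3, -1.27 (SE 0.092) for uc003okx.2 and -1.55 (SE 0.071) for uc003lzb.3 on the log2 scale. The rows were thus 2.46-, 2.42- and 2.92-fold lower than siControl in the combined knockdown. Between single libraries, the gap was 2.25- to 2.71-fold for uc001kmo.3, 2.26- to 2.58-fold for uc003okx.2 and 2.84- to 3.01-fold for uc003lzb.3. The gap of uc003lzb.3 was wider in every such pair than any pair of the other rows gave. In this comparison 36.3% of tested rows were lower without overlap and 25.8% were lower at an adjusted p of 0.05, among them the 3 rows. Rows that were lower with siADAR1, higher again with the Staufen1 siRNA and still lower than siControl, each at an adjusted p of 0.05, made up 7.5% of tested rows.

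How complete the return was depended on the scale. On the log2 scale the rise was 72.6% of the fall for uc001kmo.3, 73.2% for uc003okx.2 and 64.4% for uc003lzb.3, with replicate SDs propagated from the 3 groups of 3.64, 1.91 and 1.32 percentage points. On the linear scale, the share of the lost CPM that was present again was 38.2%, 39.1% and 30.8% in the same order. Set against the mean siControl level, the combined knockdown held 40.5% ± 2.7 for uc001kmo.3, 41.3% ± 0.62 for uc003okx.2 and 34.2% ± 1.2 for uc003lzb.3 (SD, n = 2 each). Per library of the combined knockdown, the log2 return was 71.5% and 74.3% for uc001kmo.3, 73.6% and 72.9% for uc003okx.2, and 65.3% and 63.7% for uc003lzb.3. On both scales uc001kmo.3 and uc003okx.2 differed by less than the spread between replicates, and uc003lzb.3 was lower in both libraries.

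Ratios between 2 rows within a library do not depend on the scaling of libraries. Their shifts between groups restate the differences between the falls and gaps above on a scale-free measure, so they are no separate evidence. With 2 libraries in each group the smallest p of an exact two-sided permutation test is 0.33, and values are given without a test. The log2 ratio of uc001kmo.3 to uc003okx.2 was -0.81 and -0.78 in siControl, -1.13 and -0.58 in siADAR1, and -0.91 and -0.74 in the combined knockdown. The groups overlapped, and their means differed by at most 0.066 from siControl, less than the SD of 0.38 in siADAR1.

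The ratio of uc003okx.2 to uc003lzb.3 differed between the groups. It was -0.88 and -1.05 in siControl, -1.38 and -1.35 in siADAR1, and -0.71 and -0.67 in the combined knockdown, with no overlap between any of the groups. Its mean in siADAR1 was lower than in siControl by 0.40 and that in the combined knockdown higher by 0.28. The SDs were 0.12, 0.018 and 0.028 in siControl, siADAR1 and the combined knockdown. The siADAR1 ratios rest on 35 and 45 reads of uc003okx.2 and 91 and 115 of uc003lzb.3. Their counting error is larger than the SD of 0.018, so that SD understates the uncertainty of the shift. In these libraries uc003okx.2 was lower relative to uc003lzb.3 in siADAR1, and higher in the combined knockdown, than in siControl. The ratio of uc001kmo.3 to uc003lzb.3 took the same course, with -1.68 and -1.83 in siControl, -2.51 and -1.94 in siADAR1, and -1.61 and -1.41 in the combined knockdown. Its groups did not overlap either, but siADAR1 replicate b lay close to siControl replicate b. Replicate a of the combined knockdown lay closer still to siControl replicate a. From siControl, the mean of this ratio shifted by -0.47 in siADAR1 and by 0.24 in the combined knockdown. The SDs were 0.10, 0.40 and 0.14 in siControl, siADAR1 and the combined knockdown. How many other pairs of rows separate the groups in this way was not analysed here.

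**Figure D3:**
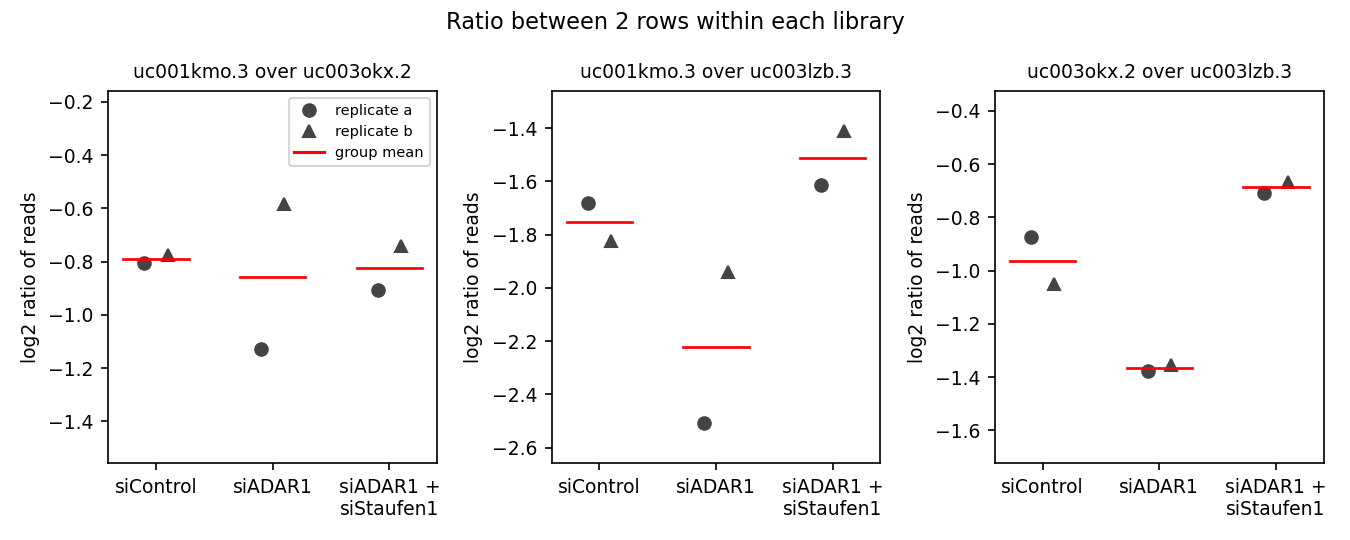
Log2 ratio of the reads of 2 rows within each library, one panel per pair of rows, with circles for replicate a, triangles for replicate b and lines for group means; each panel spans the same range of log2 units. The ratio of uc003okx.2 to uc003lzb.3 separates the 3 groups (means -0.96, -1.37 and -0.69), whereas that of uc001kmo.3 to uc003okx.2 overlaps between them. Counting error is not drawn, and for the former ratio it is larger than the gap between the siADAR1 replicates. How many other pairs of rows separate the groups was not analysed.

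Returns were also read in the other rows with deep falls. Leaving out the 3 rows, which were chosen for returning, 58 rows averaging 3 or more in log2 CPM fell at least 4-fold, with a median return of 64.1% on the log2 scale (quartiles 40.4% and 70.8%). Of these, 28 returned by at least as much as uc003lzb.3 and 13 by at least as much as uc003okx.2. Among the 16 that fell at least 8-fold, the median return was 30.2% (range -8.26% to 76.4%), where 3 returned by at least 64.4% and 4 by less than 10%. A deep fall came with a large return in some rows and with almost none in others.

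**Figure D4:**
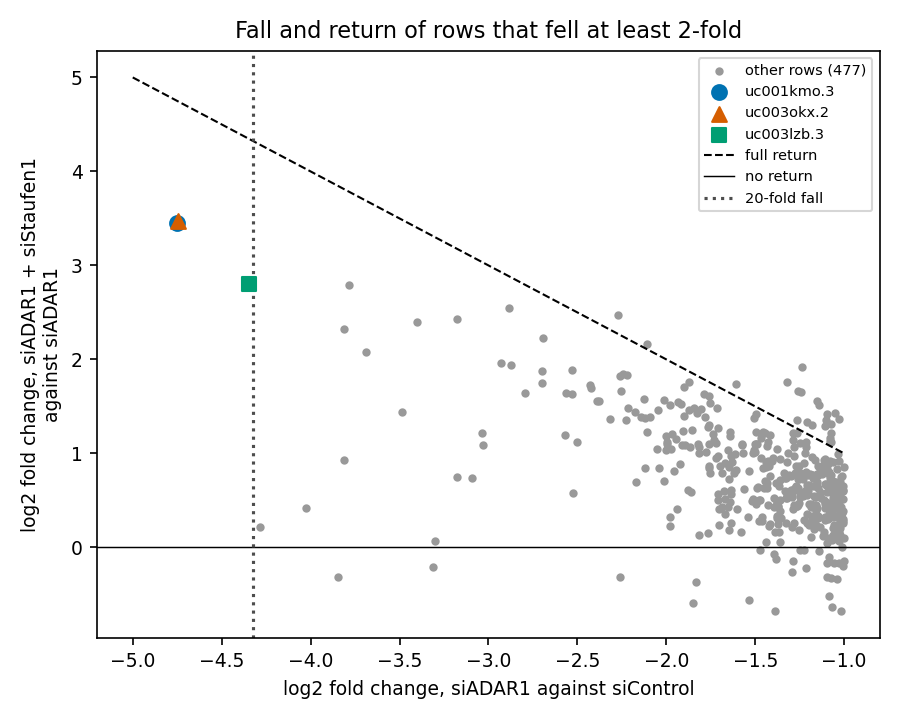
Log2 fold change of the combined knockdown against siADAR1 plotted over that of siADAR1 against siControl, for the 480 rows averaging 3 or more in log2 CPM that fell at least 2-fold; coloured symbols are the 3 rows, grey points the other 477, the dashed line a full return and the dotted line a 20-fold fall. Both axes use the siADAR1 libraries, so noise in those libraries by itself adds a link between the axes. The 3 rows lie left of the dotted line at rises of 2.80 to 3.47, below the dashed line.

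The rows with the most similar pattern were found by the root mean square difference in log2 CPM over the 6 libraries, after centring each row on siControl, from the mean profile of the 3 rows. The 5 nearest of 9004 other rows averaging 3 or more in log2 CPM lay 0.459 to 0.732 away, while the 3 rows, which define the profile, lay 0.103 to 0.181 from it. The nearest, a group of 4 transcripts with at least 915 reads in every library, fell by 3.81 and rose by 2.33 on the log2 scale, a return of 61.0%. It stood at 453 and 417 CPM in siControl, 33.0 and 28.9 CPM in siADAR1, and 149 and 161 CPM in the combined knockdown. The next, also a group of 4 transcripts, fell by 3.78 and rose by 2.79, a return of 73.8%. Both thus fell and returned with 908 reads or more behind each value, where the 3 rows had 16 to 115 reads in siADAR1. The other 3 of the nearest returned by 41.4% to 70.4%. Among the 3 rows themselves, uc001kmo.3 and uc003okx.2 were closest, at 0.149, and uc003lzb.3 lay 0.298 and 0.265 from them.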

How the data were processed

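The deposited table holds RSEM expected counts (estimated read counts), whole numbers throughout, for 6 libraries. The submitters' processing notes name RSEM 1.2.3, edgeR and the build hg19 without roles. Per the labels' protocols, libraries came from total RNA (miRNeasy) with the Lexogen SENSE mRNA kit V2. Each row collects 1 or more UCSC hg19 transcripts, per the file headers. For the aligner, strand handling and rounding, a statement was not given in the sources used here.

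Rows were kept by filterByExpr (10 reads, total of 15), scaled by TMM and fitted with edgeR 4.0.16 (R 4.3.3) as a mean per group over all 6 libraries, leaving 3 residual degrees of freedom. Contrasts used the two-sided quasi-likelihood F test, with Benjamini-Hochberg adjustment over 14711 rows, a threshold of 0.05 and a prior count of 0.125. The standard error was the size of the log2 fold change divided by the square root of the F statistic. For changes as large as these falls and returns it can be smaller than counting error. Depth sets counting error only, since reads lack molecular identifiers and several can stem from 1 molecule. The rows, lists and measures were chosen with earlier results of these data known. Rows to be named were the 3 given rows and, without IDs, the 5 of most similar pattern. Marker lists needed symbols and were not run. Alternatives were DESeq2 (1.42.0) size factors, library totals, no filter, DESeq2, limma-voom (limma 3.58.1), a prior count of 2, each library left out, a block for the replicate letter, only the 4 libraries compared and, for ratios, 0.5 added to counts. Plots used matplotlib 3.10.9.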

Additional observations from a re-analysis of the deposited data

How the results depend on the processing

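All 126 alternative log2 fold changes of the 3 rows kept their direction. The rows were chosen for large changes in these libraries, so this outcome was close to fixed in advance and is no support. The 20-fold limit, which uc003lzb.3 crossed in 3 settings, is a separate one. With no library left out, 19 of 21 alternative returns and all 9 alternative ratios (0.5 added to the counts) moved by less than the replicate SD. The exceptions were returns under library totals, 75.5% for uc003okx.2 and 66.3% for uc003lzb.3. Of 78 alternative counts of called rows, 76 lay within 1.5 times the reported one. Under library totals, 2407 rows were lower with siADAR1 and 2349 with the combined knockdown against siControl, where the shift of all fold changes moves rows across 0. Rises then made up 74.7% of the calls with siADAR1 against 52.6% with TMM, 70.9% against 52.7% for the combined knockdown against siControl, and 33.3% against 50.2% for the combined knockdown against siADAR1. With the replicate block, the returns were 72.6%, 73.2% and 64.4% for uc001kmo.3, uc003okx.2 and uc003lzb.3, and it changed no call of the 3 rows. Across rows, the difference between replicates a and b correlated between groups by only 0.051, 0.021 and 0.0060, so replicate letters were treated as names without pairing. With a library left out, where the lone sample left in a group borrows the spread of the others, the fall of uc001kmo.3 ran from -5.15 to -4.47 and its rise from 3.17 to 3.85, the larger values without siADAR1 replicate b and the smaller without replicate a. The returns ran from 70.9% to 74.7% for uc001kmo.3, 71.7% to 74.2% for uc003okx.2 and 63.6% to 64.9% for uc003lzb.3. With 2 libraries in a group, leaving 1 out moves a group mean by less than the SD by construction, so these ranges are no sign of stability. The reads in siADAR1, as few as 16, limit the precision of every fall and return.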
